A study of Homo sapiens with 4 samples.

Results

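DNA transposons are mobile elements that move as DNA by a cut-and-paste reaction, catalysed by a transposase that an intact copy encodes. They differ in this from the long terminal repeat (LTR), L1 and Alu elements, which copy themselves through RNA. Human copies are fossils of old insertions that no longer move, and they reach RNA mostly as parts of other transcripts or where a promoter happens to lie in or beside a copy. The elements described here are the loci of the deposited table of transposable element (TE) counts whose family name begins with 1 of 10 prefixes: Tigger, Charlie, Ricksha, MADE, MARNA, Zaphod, Cheshire, Looper, Arthur or Kanga. The rule uses names and no measured value, although it was set with earlier results of these data known. It found 4006 of the 261609 loci of the table, in 72 of 655 families. DNA transposons with other names, among them many of the MER-named families, are not in this set.

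The study treated 2 human cancer lines with inhibitors of DNA methylation and histone deacetylation and counted RNA in single cells from the 5′ end of the transcript. H1299 is a non-small cell lung cancer line and HCT116 a colorectal cancer line, both at passage 5 to 10. Each received DMSO, the solvent, or DAC+SB: 500 nM of the DNA methyltransferase inhibitor decitabine (DAC) for 72 h and 500 nM of the histone deacetylase inhibitor SB939 for 18 h, with medium renewed every 24 h. Each of the 4 combinations was 1 library, so no group has a replicate, no test within a line was possible and no p-value is given. Intervals are 95% intervals of counting error only and do not cover variation between cultures or library preparations. Those of levels and ratios also treat each count as independent, so they do not cover the clustering of counts in single cells.

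The libraries held 3578 to 4327 cells and 38927267 to 64524196 gene and TE counts, and the treated HCT116 library was the shallowest, with a median of 8449 counts per cell against 15784.5 to 17369.5 in the others. Of 15158 distinct cell barcodes, 131 occurred in more than 1 library. Levels are given per 1000000 gene and TE counts of a library (CPM). As a check of the labels, 6 marker genes of each line were summed. The H1299 list reached 2529 CPM without and 1209 with DAC+SB in its own line, against 84.6 and 288 in the HCT116 libraries. The HCT116 list summed to 96.0 and 60.9 CPM in the HCT116 libraries, against 0.0775 and 7.48 in H1299. Each list's sum was higher in its own line. VIM, the intermediate filament gene vimentin, carried most of the H1299 list, and EPCAM, an epithelial adhesion gene, most of the HCT116 list, whereas NNMT of the first list and CDH17 of the second were at or near 0 in all libraries. Of the HCT116 list, LGALS4 and CDH17 went against the sum after treatment, LGALS4 with 1.60 CPM in treated H1299 and 1.08 in treated HCT116.

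The set splits by transposase superfamily. Tigger, Kanga, MADE and MARNA names belong to the Tc1/mariner superfamily, Charlie, Cheshire, Arthur and Zaphod to hAT, Looper to piggyBac and Ricksha to the MULE elements. Tigger names gave 2354 loci in 28 families and Charlie names 1320 loci in 27 families. The other prefixes gave 6 to 137 loci each, except MARNA, which was not found. Tigger and Charlie names together therefore held most loci and most counts. Tigger names had 2513 counts in untreated and 4374 in treated H1299, and the HCT116 libraries had 943 and 3712. For Charlie names H1299 had 1426 and 1072 counts and HCT116 had 1265 and 2087. Charlie names thus had fewer counts with DAC+SB in H1299 and more in HCT116, while Tigger names had more in both lines. These sums compare different classes, and over the classes that both H1299 libraries list, Tigger names had 1532 and 1552 counts, a log2 ratio of 0.07 (-0.04 to 0.17), and Charlie names had 715 and 628, at -0.14 (-0.30 to 0.02). Both intervals include 0. Kanga had 123 to 254 counts per library and Cheshire 61 to 246. Ricksha reached 300 counts in treated H1299, the MADE name 118 in treated HCT116, and Arthur at most 100, whereas Zaphod and Looper were listed in a single library each, with 21 and 25 counts.

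DNA transposons were a small part of the TE signal, and a smaller part after treatment. Summed over all listed loci, H1299 had 4529 DNA transposon counts under DMSO and 6113 under DAC+SB, and HCT116 had 2443 and 6445. These made up 3.53% of the TE counts of untreated H1299 and 0.316% of those of treated H1299. The corresponding HCT116 shares were 1.22% and 0.298%. All TE counts together were 0.199% of the untreated and 3.09% of the treated H1299 library, and 0.319% and 5.56% in HCT116. The DNA transposon share was thus lower in the libraries where the TE total was higher.

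How far the DNA transposons themselves responded depends on which classes can be compared. A class is a family together with the position number that the table gives after the family name, for which the sources used here give no meaning. The lowest count of a listed TE class was 20 in each library. The rule by which a class was listed is not known, and an unlisted class may have had few, many or 0 counts: Tigger1 position 93, with 565 counts in untreated H1299, was not listed in treated H1299. Of the 128 DNA transposon classes, 27 were listed in both H1299 libraries, 27 in the untreated one alone and 36 in the treated one alone. In HCT116, 23 were listed in both, 11 without treatment alone and 46 with treatment alone. The classes listed with treatment alone were 40% of the DNA transposon classes listed in H1299 and 57.5% of those in HCT116, near the 43.0% and 55.0% of all TE classes. Those listed without treatment alone were 30% in H1299, against 22.4% of all TE classes, and 13.75% in HCT116, against 13.3%. Those listed in both were 30% against 34.6% in H1299 and 28.75% against 31.7% in HCT116. Classes present on both sides held 59.1% of the DNA transposon counts of untreated H1299 and 39.1% of those of treated H1299, and 85.1% and 34.6% in HCT116. Of all TE counts, such classes held 85.7% and 76.7% in H1299 and 95.1% and 88.3% in HCT116. Unless stated otherwise, ratios are given over the classes present on both sides, called shared classes. By construction they leave out the classes listed under 1 treatment alone, and with them a larger part of the DNA transposon counts than of all TE counts.

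**Figure D1:**
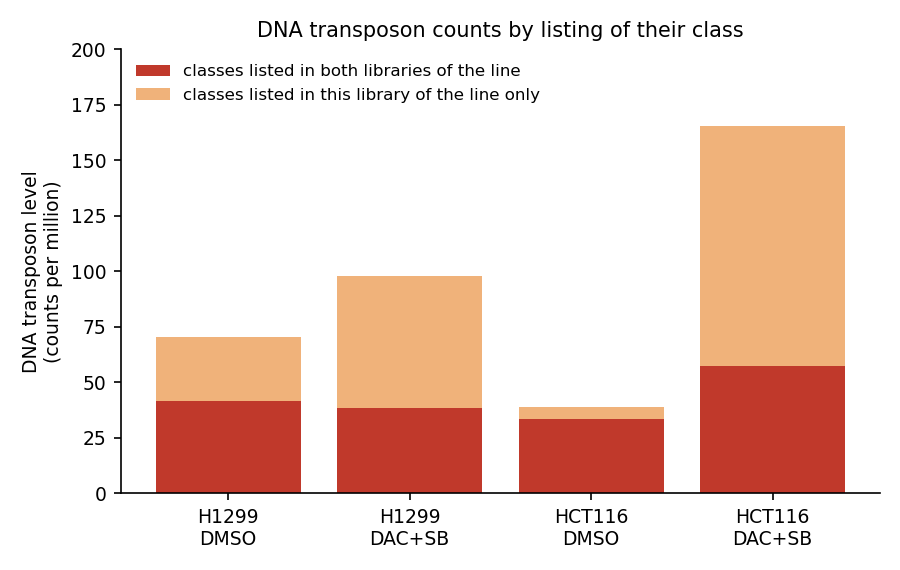
Stacked bars show the summed DNA transposon level in each library in CPM, split into shared classes and classes that were listed, within the line, under that treatment alone. The part in shared classes lies between 33.2 and 57.3 CPM in every library, whereas the part in classes listed under 1 treatment of the line runs from 5.81 CPM in HCT116 DMSO to 108 CPM in HCT116 DAC+SB.

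Over shared classes and summed over cells, DNA transposons were nearly level in H1299 and less than 2-fold higher with DAC+SB in HCT116. In H1299 they summed to 2678 counts with DMSO, or 41.5 CPM (39.9 to 43.1), and to 2389 counts with DAC+SB, or 38.3 CPM (36.7 to 39.8). The ratio of DAC+SB to DMSO was 0.922 (0.872 to 0.975), or -0.12 as a log2 value. In HCT116 they summed to 2079 counts with DMSO, or 33.2 CPM (31.8 to 34.6), and to 2229 counts with DAC+SB, or 57.3 CPM (54.9 to 59.7). The HCT116 ratio was 1.73 (1.62 to 1.83), or 0.79 on the log2 scale. As a mean over cells of each cell's share, the HCT116 log2 value was 1.30, which is past 2-fold. The treated HCT116 library was also the one with most cells above 25% mitochondrial counts, at 25.1% of cells, and without these cells in either library the log2 value was 0.54. Shared classes held a larger part of all TE counts than of DNA transposon counts. Over them, all other TE together had ratios of 14.3 in H1299 and 16.4 in HCT116. LTR12-named elements, an endogenous retrovirus group, made up 83.4% and 65.0% of these other TE counts in the treated libraries, and without them the ratios were 2.68 and 6.97. With every listed class counted, the DNA transposon ratio was 1.40 in H1299 and 4.25 in HCT116, which turns the H1299 direction, and those sums compare different classes.

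**Figure D2:**
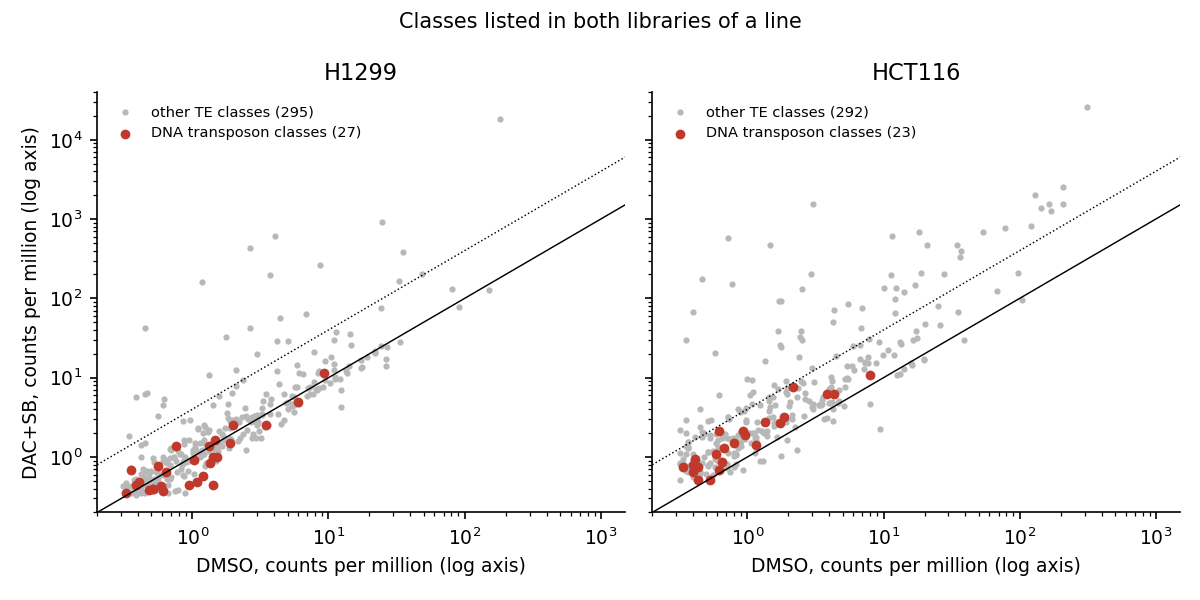
Each point is 1 shared class, at its level in CPM with DMSO (x, log axis) and with DAC+SB (y, log axis). The solid line marks equal levels and the dotted line a 4-fold higher DAC+SB level. The 27 DNA transposon classes of H1299 and the 23 of HCT116, in red, all lie below the dotted line, while many other TE classes, in grey, lie above it.

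Taken singly, the shared classes ran from a log2 ratio of -1.67 to 0.95 in H1299, with a median of -0.31, and from -0.036 to 1.82 in HCT116, with a median of 0.79. In H1299, 9 of the 27 classes lay below 0 with their whole interval and 3 above, against 20.2% and 30.4% of all 322 shared TE classes. In HCT116, 0 of 23 lay below and 16 above, against 3.81% and 78.1% of 315. Some small classes stood near the ends of these ranges. Kanga1 position 3 had 70 and 30 counts in H1299, at -1.17 (-1.84 to -0.54), and Tigger22N1 position 36 had 23 and 43, at 0.95 (0.19 to 1.75). Charlie29a position 30 was among the highest in both lines, with 49 and 86 counts in H1299 and 39 and 82 in HCT116, at 0.86 (0.34 to 1.40) and 1.76 (1.19 to 2.35). A single copy, locus 5281956, held 41 and 75 of these H1299 counts and 29 and 70 of those in HCT116.

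The superfamilies were then compared. In H1299, Tc1/mariner names had a log2 ratio of 0.03 (-0.07 to 0.13) and hAT names of -0.25 (-0.39 to -0.11), and these intervals do not overlap. A single copy bears on this gap. Without Tigger1 locus 1187060, described further on, Tc1/mariner names had 1602 and 1427 counts and were at -0.12 (-0.22 to -0.02), still above hAT but with overlapping intervals. On the hAT side, Charlie names alone were at -0.14 (-0.30 to 0.02), which includes 0. Cheshire loci 89700, with 85 and 49 counts, and 5929248, with 68 and 26, are also in the hAT sum, which was not computed without them. In HCT116 the values were 0.85 (0.72 to 0.98) and 0.74 (0.62 to 0.85), with overlapping intervals. The difference between the superfamilies was not given an interval of its own in either line. The remaining counts of H1299 were those of Ricksha_c. Over the 10 classes listed in all 4 libraries, the log2 ratio was -0.0074 in H1299 and 0.63 in HCT116, a difference of -0.64 (-0.81 to -0.48), which has no replicate check. These classes include Tigger1 position 14, where locus 1187060 had 0 and 155 counts in H1299 and 0 and 73 in HCT116. The ratio of each line without it is not given. Without the locus with most counts in each line, the difference was -0.75.

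Other groups of old elements were compared in the same way. The L1 families with names beginning L1M or L1PB had log2 ratios of -0.20 in H1299 and 0.98 in HCT116 over shared classes. The MER-named families, a mixture of DNA transposons and LTR elements, had ratios of 1.48 and 2.83, or 0.57 in H1299 on the log2 scale. A set of 12 families with other DNA transposon names, such as HSMAR1, HSMAR2 and OldhAT1, was chosen after its values were seen. Of these, 7 families in H1299 and 4 in HCT116 had shared classes, which summed to log2 ratios of -0.20 and 1.04. HSMAR1 position 12, a mariner class and the largest of that set in H1299, had 327 and 248 counts there and 91 and 120 in HCT116. The DNA transposon values of both lines lay closer to those of the L1M and L1PB families than to those of the MER-named families.

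No DNA transposon family that could be compared was 4-fold higher or lower with DAC+SB. A family entered this comparison if 1 of the pair of libraries had at least 100 of its counts over shared classes. By this limit 9 DNA transposon families could be compared in H1299 and 6 in HCT116. At 4-fold higher there were 0 of 9 and 0 of 6. This was not particular to them: the L1M and L1PB families had 0 of 39 in H1299 and 0 of 31 in HCT116. The set of other DNA transposon names had 0 of 5 and 0 of 2, and the MER-named families had 3 of 25 and 9 of 30. Of all TE families compared in the same way, 17.4% of 144 were at least 4-fold higher in H1299 and 36.9% of 157 in HCT116, and 0% were 4-fold lower in either line. The median log2 ratio of the DNA transposon families was -0.31 in H1299, against 0.20 for all TE families, and 0.67 in HCT116, against 1.38. In H1299, 3 of the 9 families lay above 0 and 6 below, whereas 60.4% of all TE families lay above 0. In HCT116 all 6 lay above 0, as did 91.1% of all TE families. At 2-fold, 1 H1299 family was lower, against 2.08% of all TE families, and 2 HCT116 families were higher, against 62.4%.

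**Figure D3:**
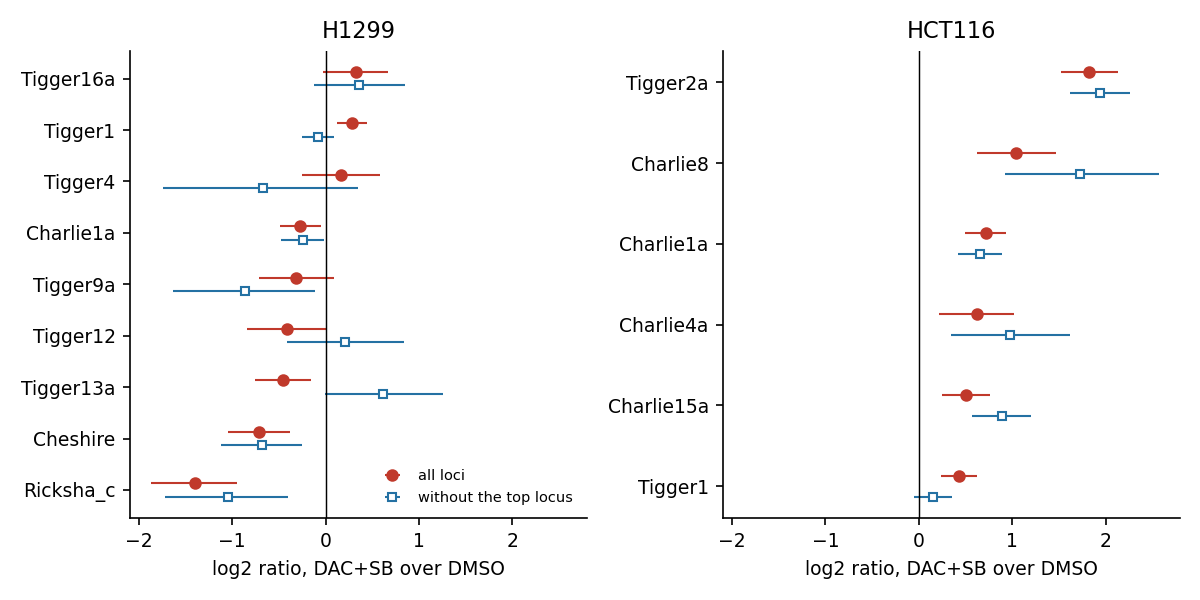
Points give the log2 ratio of DAC+SB to DMSO for each DNA transposon family past the limit of 100 counts, with 95% counting intervals as bars. Red circles use all loci and open blue squares leave out the locus with most counts. In H1299, Tigger1, Tigger4, Tigger12 and Tigger13a cross 0 when that locus is left out. In HCT116 all squares stay to the right of 0.

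Over shared classes, Tigger1 was the family with most counts in both lines. At position number 14 it had 600 counts in untreated and 705 in treated H1299, and the HCT116 libraries had 500 and 419. Its level was thus 9.30 and 11.3 CPM in the H1299 libraries and 7.98 and 10.8 CPM in the HCT116 libraries. The log2 ratio of H1299 was 0.28 (0.12 to 0.44), and that of HCT116 was 0.43 (0.24 to 0.62). A single copy, locus 1187060, accounted for most of both differences. It had 0 counts at position 14 in either DMSO library, 155 in treated H1299 and 73 in treated HCT116. Because the class was listed in all 4 libraries, these zeros are counts, and with the DMSO count set to a floor of 3 per library the locus was at least 53.4-fold higher in H1299 and at least 39.2-fold higher in HCT116 at this position number. No bound follows for the copy as a whole, since it was also counted at position numbers 15 and 100, which neither DMSO library lists. Without it, H1299 Tigger1 was at -0.078 (-0.25 to 0.09) and HCT116 Tigger1 at 0.16 (-0.05 to 0.36). The copy also had 191 counts at position 15 in H1299 DAC+SB, a class listed in no other library.

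For most other Tigger families of H1299, the treatments did not differ beyond counting error. Tigger16a had 129 counts with DMSO and 156 with DAC+SB, a log2 ratio of 0.32 (-0.02 to 0.67). Tigger4 had 95 and 103 counts, at 0.16 (-0.25 to 0.58). Tigger9a had 122 and 95 counts, at -0.31 (-0.72 to 0.09), and Tigger12 had 113 and 82, at -0.41 (-0.84 to 0.01). The interval of each of these 4 families includes 0. Tigger12 sums a pair of classes, and position 120, which all 4 libraries list, had 87 and 52 counts, at -0.69 (-1.22 to -0.18), below 0 beyond counting error. In 3 of them 1 copy held most counts: without it, Tigger4 was at -0.67 (-1.74 to 0.35), Tigger9a at -0.86 (-1.64 to -0.11) and Tigger12 at 0.21 (-0.42 to 0.83). Tigger13a had 224 and 158 counts, at -0.46 (-0.76 to -0.16), but locus 4277855 held 187 of the former and 103 of the latter, and the remaining 37 and 55 counts gave 0.62 (-0.01 to 1.26).

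Among the 9 H1299 families compared, the lowest ratios were those of Ricksha_c and Cheshire. Ricksha_c, a MULE family, had 153 counts with DMSO and 56 with DAC+SB, a log2 ratio of -1.40 (-1.87 to -0.95), and it was the family past 2-fold lower. Locus 4412652 held 89 and 26 of these counts, and without it the family was at -1.05 (-1.72 to -0.40). Cheshire, a hAT family, had 208 and 123 counts, at -0.71 (-1.04 to -0.38), or -0.69 without locus 89700. Over the class that all 4 libraries list, Cheshire had 33 and 25 counts and was at -0.35 (-1.16 to 0.44). Both families thus stayed below 0 without their largest copy, but for Cheshire the class that all libraries share did not differ beyond counting error. A second copy held most of the DMSO counts that then remained. Ricksha_c locus 5185891 had 56 of the remaining 64 counts with DMSO and 22 of 30 with DAC+SB. Cheshire locus 5929248 had 68 of 123 and 26 of 74. Values without both copies were not computed, so a lower level across the copies of these families was not shown. Charlie1a was the hAT family with most counts in H1299, with 385 and 309, at -0.27 (-0.49 to -0.05), and its counts were spread over 117 and 115 loci.

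In HCT116, Tigger2a stood highest of the 6 families. It had 135 counts with DMSO and 297 with DAC+SB, a log2 ratio of 1.82 (1.53 to 2.13), over 73 and 151 loci. Its largest copy held 16 and 14 counts, and without it the value was 1.94 (1.62 to 2.26), so the higher level was shared by many copies. In H1299, Tigger2a was listed only with DAC+SB, with 220 counts over 122 loci, and no ratio was computed. Charlie8 had 85 and 109 counts in HCT116, at 1.05 (0.62 to 1.47). Locus 3536687 held 65 and 68 of these, and without it Charlie8 was at 1.72 from 20 and 41 counts.

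The remaining HCT116 families were hAT elements. Charlie1a had 355 counts with DMSO and 362 with DAC+SB, a log2 ratio of 0.71 (0.50 to 0.93). Charlie15a had 273 and 241 counts, at 0.51 (0.25 to 0.76), and Charlie4a had 109 and 104, at 0.62 (0.22 to 1.02). In these families the raw counts of both libraries over shared classes were similar, while the treated library had the smaller total. Charlie15a position 8, listed in HCT116 with DAC+SB alone, had 178 counts there that its values leave out. Without locus 6089434, Charlie15a was at 0.89 (0.57 to 1.20). Charlie1a thus lay below 0 in H1299 and above 0 in HCT116, in each case outside counting error. Its HCT116 sum includes position 62, which was not shared in H1299, and position 68 alone had 239 counts in either HCT116 library, at 0.69 (0.42 to 0.95).

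Single loci were then compared within shared classes. With a minimum of 20 counts in 1 of the pair of libraries, 30 DNA transposon loci could be compared in H1299 and 18 in HCT116. In H1299, 1 of 30 was at least 4-fold higher with DAC+SB, against 80% of 3220 loci of all TE, and 2 were 4-fold lower, against 0.932%. In HCT116, 2 of 18 were higher, against 90.2% of 6950 loci, and 0 were lower, against 0.403%. The median log2 ratio of the DNA transposon loci was -0.51 in H1299 and 0.55 in HCT116, and that of all TE loci was 4.05 and 4.25. The count minimum admits loci through whichever library is higher, so these shares and medians describe loci that passed it and not all copies. A locus at 0 in a library was set to the floor. With 20 counts in the other library it then passed 4-fold by construction. A count in both libraries was present for 1128 of the 3220 H1299 and 3267 of the 6950 HCT116 loci of all TE. For DNA transposon loci these were 29 of 30 and 17 of 18. The 4-fold shares of all TE thus rest largely on the minimum and the floor, and no contrast is drawn from them.

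Tigger1 locus 1187060, at 0 counts with DMSO and so compared through the floor, was the locus past 4-fold higher in both lines. The second in HCT116 was Charlie1a locus 6012491, with 12 counts untreated and 30 treated, a log2 ratio of 2.01 (1.00 to 3.11). Charlie29a locus 5281956 fell just short of the limit there, with 29 and 70 counts and a log2 ratio of 1.96 (1.31 to 2.64), and it was at 0.92 in H1299, from 41 and 75 counts. The 2 lower loci of H1299 were Charlie1a locus 1028212, with 25 and 6 counts, and Tigger9a locus 2988044, with 29 and 7. Both lay at the limit, with intervals from -3.59 to -0.69 and from -3.44 to -0.78. Of the 29 H1299 loci with a count in both libraries, 11 had an interval wholly below 0 and 2 wholly above it, against 16.7% and 52.2% of 1128 such loci of all TE. Of the 17 such HCT116 loci, 0 lay wholly below and 7 wholly above, against 2.75% and 88.8% of 3267. With 50 counts as the minimum, 1 of 14 H1299 loci was 4-fold higher, against 86.6% of 1882 loci of all TE, and 0 were lower, against 0.478%. In HCT116 the numbers were 1 of 6, against 93.7% of 3303, and 0, against 0.303%. At this minimum too, loci at 0 in a library passed 4-fold through the floor.

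**Figure D4:**
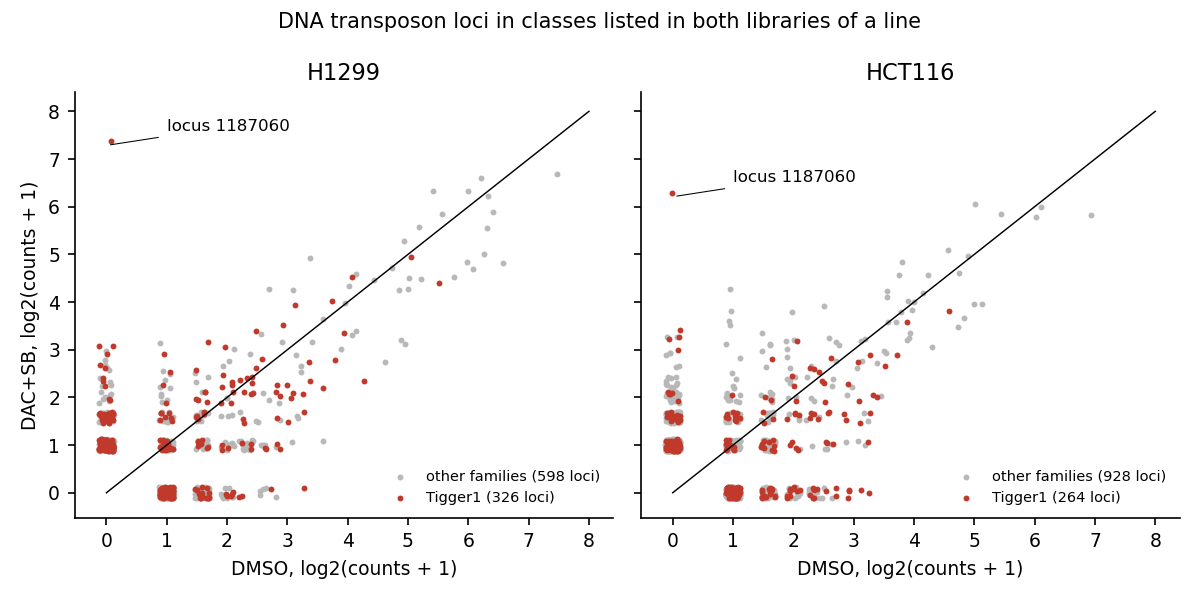
Each point is 1 DNA transposon locus in shared classes, at log2 of its counts plus 1 with DMSO (x) and DAC+SB (y), shifted by a small random amount so that low counts do not overlap. Most loci lie near the origin or along the line of equal counts, and Tigger1 locus 1187060, at 0 counts with DMSO, stands alone at the upper left in both lines. Counts are not divided by library totals, which were 62639099 and 38927267 in HCT116. Equal HCT116 counts are therefore a higher CPM with DAC+SB.

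The 5 copies with most counts under DMSO were different ones in the lines. In H1299 DMSO they were Tigger13a locus 4277855 with 187 counts, Ricksha_c locus 4412652 with 89, Tigger2 locus 5335421 with 87, Charlie13a locus 4232093 with 85 and Cheshire locus 89700 with 85. The classes of the Tigger13a and Ricksha_c copies were listed in neither HCT116 library, and nor was Tigger2 position 7, which held all 87 counts of that copy. The Charlie13a copy had 32 and 15 counts in the HCT116 libraries. In HCT116 DMSO they were Charlie15a locus 6089434 with 113 counts, Charlie4a locus 3388368 with 69, Charlie8 locus 3536687 with 65, Charlie13a locus 3375183 with 50 and Charlie1a locus 2471638 with 43. All 5 were hAT copies, whereas the H1299 DMSO copies came from 3 superfamilies. Charlie8 locus 3536687 also had 78 counts in H1299 DMSO, in a class not listed in H1299 DAC+SB. For the Charlie15a, Charlie4a and Charlie13a copies of HCT116, every class was unlisted in H1299 DMSO, as was Charlie1a position 62. The lists thus differ partly through listing, and the 5 highest loci of all TE were not compared. Over classes listed in both lines, shared loci were 42.0% of the H1299 and 49.8% of the HCT116 loci under DMSO. Under DAC+SB they were 37.4% and 40.7%.

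Of the 5 copies with most counts under DAC+SB, 3 were the same in both lines. In treated H1299 the highest, summed over position numbers, was Tigger1 locus 1187060 with 346 counts, and it had 79 in HCT116 DAC+SB. Ricksha locus 5587633 followed with 242 counts, and had 91 in HCT116 DAC+SB. Tigger3 locus 3339003 had 226 and 125 counts in the treated libraries. These 3 copies were among the 5 highest of both treated libraries. The 5 highest loci of all TE were not compared here either, and no contrast with DMSO is drawn. Over classes listed in both treated libraries, loci counted in both lines held 94.0% and 89.7% of all TE counts. For DNA transposons they held 75.5% and 73.0%. Tigger3b locus 1940525 (156 in H1299 and 26 in HCT116) and Tigger3 locus 5321537 (115 and 5) completed the H1299 list. Charlie26a locus 4584368 (189 in HCT116 and 49 in H1299) and Tigger3c locus 1352310 (127 and 8) completed the HCT116 list. None of the 7 copies had more than 1 listed count in a DMSO library, but for 6 of them every class was unlisted there, so the fold remains unknown.

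Some classes were seen in both treated libraries and in neither DMSO library. There were 14 such DNA transposon classes, or 10.9% of the 128, against 11.5% of all TE classes. Of the 14, 9 were Tigger, as were 54 of the 128 DNA transposon classes, and together the 14 had 2007 counts in H1299 DAC+SB and 1798 in HCT116 DAC+SB. The reverse, listed in both DMSO libraries and neither treated one, held for 2 classes, 1.56% against 2.02% of all TE classes. Tigger3b position 43 was the largest of the 14, with 696 counts in H1299 and 543 in HCT116. Tigger3 position 133 had 289 and 231, Tigger3c position 12 had 128 and 293, and Ricksha position 40 had 244 and 56. They were not alike in their spread. The Tigger3b counts came from 129 and 148 loci, the largest of which held 22.4% and 8.84% of them. The Ricksha counts came from 3 and 2 loci, and 1 copy held 99.2% of them in H1299. Tigger3 position 133 lay between these, with 77.5% and 54.1% of its counts in locus 3339003.

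Classes with at least 200 counts that were listed in 1 library of a line also included a case from the untreated side. Tigger1 position 93 had 565 counts in H1299 DMSO, from 171 loci, was not listed in H1299 DAC+SB, and had 364 counts in HCT116 DAC+SB without being listed in HCT116 DMSO. Tigger1 position 15 had 626 counts in H1299 DAC+SB, 30.5% of them in locus 1187060. No ratio was computed for these classes.

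The spread over loci was wide and thin. The median DNA transposon locus with a count had 1 count in every library, and between 53.8% and 58.7% of loci had exactly 1. The 100 highest loci held 61.0% of the DNA transposon counts of untreated and 59.8% of those of treated H1299. In HCT116 they held 57.6% of the counts of 781 loci untreated and 43.1% of those of 2035 loci treated. A fixed number of loci is a smaller part of a longer list, so these shares do not rank the libraries by concentration. Of the 4006 loci, 104 had a count in all 4 libraries, and 360 had counts at more than 1 position number. To compare the number of loci at 1 library total, every library was thinned to 38927267 counts, which leaves the numbers of cells and the counts per cell unequal. Over shared classes this left 413 loci in untreated and 461 in treated H1299, and 518 and 795 in the HCT116 libraries. The number was 1.12 times and 1.53 times as high with DAC+SB, against 2.03 and 3.51 times for all TE. Among loci with at least 3 counts the H1299 direction turned, with 106 loci without and 95 with treatment, or 0.896 times as many, and the HCT116 number was 1.80 times as high. The 181 H1299 loci seen under both treatments were 43.8% of the DMSO loci and 39.3% of the DAC+SB loci, and held 78.8% and 68.4% of the counts. In HCT116, 234 loci were seen under both, 45.2% and 29.4% of the loci, with 69.9% and 56.3% of the counts. For all TE, the loci seen under both were 52.4% and 25.8% of the H1299 loci and 51.4% and 14.6% of the HCT116 loci.

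The treated lines shared part of their copies. Over the 31 classes listed in both treated libraries, 994 loci had a count in H1299 and 915 in HCT116. The 372 loci with a count in both were 37.4% of the H1299 loci and 40.7% of the HCT116 loci, and held 75.5% and 73.0% of the counts. For all TE the shared loci were 45.9% and 39.5% of the loci, with 94.0% and 89.7% of the counts. Under DMSO, over the 18 classes listed in both lines, 218 loci were shared, 42.0% of 519 and 49.8% of 438, with 71.6% and 74.0% of the counts, against 41.7% and 43.7% of the loci and 73.0% and 82.1% of the counts for all TE. For Tigger3b position 43 the shared loci numbered 53, and they held 79.5% of the H1299 and 65.9% of the HCT116 counts of the class. These shares depend on depth and were not tested.

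At the level of single cells, DNA transposon RNA was sparse. After each cell was thinned to 3300 counts, 12.2% (11.2 to 13.4) of H1299 DMSO cells and 11.3% (10.3 to 12.4) of H1299 DAC+SB cells had a count in shared classes. In HCT116 the shares were 9.92% (8.97 to 10.9) and 13.8% (12.8 to 15.0), after 402 shallower DAC+SB cells were left out. Unthinned, 46.0% and 42.4% of H1299 cells had such a count, and 35.3% and 28.1% of HCT116 cells, where the median depth was 16257.5 and 8449 counts per cell. Free RNA also gives counts in cells, and its share was not tested. The leading DMSO copies gave close to 1 count per carrying cell: Tigger13a locus 4277855 had 187 counts in 168 cells. Tigger3 locus 3339003 gave more, with 226 counts in 144 H1299 DAC+SB cells and 125 counts in 63 HCT116 DAC+SB cells, and up to 8 in a cell.

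In HCT116 DAC+SB the DNA transposon counts were concentrated in few cells. There, 86 of 4327 cells had 10 or more DNA transposon counts of any class and held 21.7% of them, and the highest cell had 53. Such cells numbered 3 in untreated and 19 in treated H1299, and 1 in untreated HCT116. The 86 cells had a median of 4920.5 counts and 23.5% mitochondrial counts, against 8449 and 18.6% over all cells of that library. They were chosen by their DNA transposon counts, so this is a description of them.

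The level also moved with the mitochondrial share of a cell, a common sign of cell and RNA quality, in that library. Cells above 25% mitochondrial counts made up 25.1% of HCT116 DAC+SB cells, with a median of 4214.5 counts per cell against 9810 in the rest, and 2.36% to 9.95% of the cells of the other libraries. In HCT116 DAC+SB, DNA transposons of shared classes were at 109 CPM (100.3 to 117) in these cells and at 48.0 CPM (45.7 to 50.4) in the rest, a ratio of 2.26 (2.06 to 2.48). The same ratio was 2.80 for the older L1 families and 1.56 for MER-named families, but 1.18 for LTR12-named and 1.13 for Alu-named elements. In HCT116 DMSO the DNA transposon levels were 34.6 (30.3 to 39.4) and 33.0 (31.5 to 34.6) CPM. In untreated H1299 the order was the other way, with 25.6 (18.5 to 34.4) CPM in the 91 cells above 25% and 41.9 (40.3 to 43.6) in the rest, and in treated H1299 the levels were 35.2 (25.5 to 47.5) and 38.3 (36.8 to 39.9) CPM. Without cells above 25%, the HCT116 log2 ratio was 0.54 (0.44 to 0.64), and among those cells alone it was 1.65 (1.43 to 1.87). The H1299 values were -0.13 (-0.21 to -0.05) without these cells and 0.46 (-0.18 to 1.11) among them alone. The HCT116 level was thus higher with DAC+SB in both kinds of cell. The part of the mitochondrial share and of depth in these values was not tested.

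**Figure D5:**
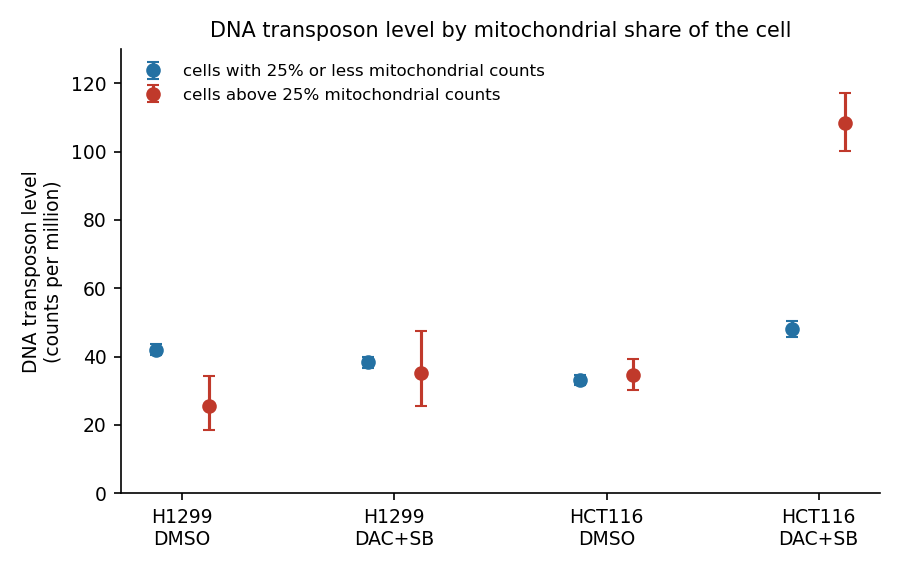
Points show the DNA transposon level over shared classes in CPM, for cells with at most 25% (blue) and more than 25% (red) mitochondrial counts in each library, and bars are 95% counting intervals. HCT116 DAC+SB is the library in which the red point lies far above the blue one, at 109 against 48.0 CPM.

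Human genes that descend from DNA transposases were recorded beside the elements. The list held 30 genes: TIGD, POGK, POGZ, CENPB and JRK genes related to the transposases of pogo and Tigger elements, SETMAR from a mariner element, ZBED and GTF2IRD2 genes from hAT elements, PGBD genes from piggyBac, THAP9, HARBI1 and NAIF1. These are genes of the host, and not copies of the elements counted above. By a minimum of 100 counts in 1 of the pair of libraries, 24 were compared in H1299 and 23 in HCT116. In H1299, 1 of 24 (4.17%) was at least 2-fold higher with DAC+SB, against 18.3% of all genes, and 7 (29.2%) were 2-fold lower, against 7.34%. In HCT116, 4 of 23 (17.4%) were higher, against 16.2%, and 6 (26.1%) lower, against 20%. The list's median log2 ratio was -0.21 in H1299 and -0.48 in HCT116, and that of all genes was -0.07 and -0.23.

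Most TIGD genes and all compared ZBED genes stood on opposite sides of 0. Of the TIGD genes compared, 5 of 7 lay above 0 in H1299 and 4 of 5 in HCT116, with medians of 0.21 and 0.91. Of all genes compared, 45.9% lay above 0 in H1299 and 40.6% in HCT116. TIGD7 (GRCh38 chromosome 16, 3298832 to 3305729, in GENCODE release 29) had 597 and 668 counts in H1299, and 47 and 168 in HCT116, where its log2 ratio was 2.52 (2.05 to 3.02). TIGD6 had 618 and 851 counts in H1299, at 0.51, and 222 and 343 in HCT116, at 1.31. TIGD3 had 52 and 109 counts in H1299, at 1.12 (0.63 to 1.62), or 0.70 where those of its features that carry a number counted only if present in both libraries. TIGD5 lay below 0 in both lines, at -1.07 in H1299 and -0.48 in HCT116, and TIGD1 in H1299 was at -0.0081, close to 0. These numbers of genes go by sign alone: TIGD2 in H1299 was at 0.18 (-0.06 to 0.43), an interval that includes 0.

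Every ZBED gene compared lay below 0, 5 of 5 in H1299 and 6 of 6 in HCT116, as did 54.1% and 59.4% of all genes. ZBED3, whose product binds axin in Wnt signalling, lies on chromosome 5 (77072072 to 77087323). It had 419 and 170 counts in H1299 and 385 and 60 in HCT116, or 6.15 and 1.54 CPM in HCT116, with log2 intervals of -1.52 to -0.99 and -2.41 to -1.60. ZBED1 had 939 and 451 counts in H1299 and 523 and 89 in HCT116, at -1.01 and -1.87, and ZBED5 was at -1.03 and -0.74. ZBED2 (chromosome 3, 111592900 to 111595443) had 569 counts in untreated and 11 in treated HCT116, a log2 ratio of -5.01 (-6.02 to -4.16), and 0 and 4 counts in H1299. Counting only features present in both HCT116 libraries left 309 and 11 counts, at -4.13.

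POGK, which joins a KRAB domain to a pogo transposase domain, was lower with DAC+SB in both lines. It lies on chromosome 1 (166839447 to 166856344) and had 1532 and 548 counts in H1299 and 1840 and 272 in HCT116, at -1.44 (-1.58 to -1.29) and -2.07 (-2.26 to -1.89). CENPB, the centromere protein that binds a motif in alpha satellite DNA, was at -0.73 in H1299 and -1.12 in HCT116. SETMAR, a fusion of a histone methyltransferase and a mariner transposase, was at -1.04 and -0.72, and over features present in both HCT116 libraries it was at -1.02 there, past 2-fold. In HCT116, PGBD4 had 65 and 107 counts, at 1.41, or 0.91 over features present in both libraries, which ends its call. HARBI1 had 135 and 237 counts there, with a log2 interval of 1.19 to 1.81. In H1299 these genes were at -0.05 and 0.72. GTF2IRD2 and GTF2IRD2B are near-identical copies on chromosome 7 between which reads can be split, so their values are uncertain. GTF2IRD2 had 139 and 62 counts in H1299, at -1.12, and GTF2IRD2B had 214 and 21 in HCT116, at -2.66, or -0.31 from the 42 and 21 counts of features present in both libraries.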

How the data were processed

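Both deposited tables give whole-number counts per feature and cell, made by the authors. The submitters' processing notes name STAR, CASAVA, GRCh38 and hg38 without a role. The counting tool, the annotation, the use of strand, the cell filter and whether counts are molecules were not given in the sources used here. The table numbers TE loci without coordinates, so no sequence is printed. Libraries come from the end of each cell name, and all 15289 cells were used. Doublets were not called; as an alternative, the deepest 5% of cells were removed.

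Counts were summed per class, family and locus with Python 3.11.15, numpy 2.4.6, pandas 2.3.3 and scipy 1.17.1. A ratio divides DAC+SB by DMSO over shared classes, each over all gene and TE counts. Summed counts have exact Poisson, shares exact Clopper-Pearson and ratios exact conditional binomial 95% intervals, and the difference between lines a normal approximation. A locus at 0 was set to 3 counts. Cells were thinned to 3300 counts and libraries to 38927267. The ratio code was tested on simulated data. Genes were matched by symbol, and features joining several gene names were added in an alternative.

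Named were families with a minimum of 100 counts, the 5 highest loci of each library, 1-library classes with at least 200 counts, and listed genes past 2-fold. Loci compared singly, the 12 other DNA transposon names, the split by mitochondrial share, the Tc1/mariner sum without 1 locus and the sum of other TE without LTR12 names were added after the values were seen. Members and lists were chosen with earlier results of these data known.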

Additional observations from a re-analysis of the deposited data

Results flagged for a closer look

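In the results below, the ratios of the lines lay on opposite sides of 0, each outside its counting interval. With 1 library per group, this difference between lines was not tested against variation between cultures, and the intervals do not cover clustering of counts in cells.

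Over the classes shared within each line, the DNA transposon log2 ratio was -0.12 in H1299 and 0.79 in HCT116. Over the 10 classes listed in all 4 libraries, H1299 was at -0.0074 (-0.11 to 0.10), which includes 0, and over every listed class it was at 0.48. The 10 classes include Tigger1 locus 1187060, with 0 and 155 H1299 counts at position 14, and no H1299 value without it is given. The hAT names were at -0.25 in H1299 and 0.74 in HCT116, over different sets of classes. Charlie names alone were at -0.14 (-0.30 to 0.02) in H1299, which includes 0. For Charlie1a the H1299 value was -0.27 and the HCT116 value 0.71, and its position 68, the class listed in all 4 libraries, was at -0.27 and 0.69. Tigger12 position 120 was at -0.69 in H1299 and 0.90 in HCT116. In H1299, locus 5073889 held 70 of the 113 untreated and 34 of the 82 treated Tigger12 counts. Without it the family was at 0.21 (-0.42 to 0.83) there.

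The gene PGBD2 was at -0.58 in H1299, from 248 and 160 counts, and at 0.47 in HCT116, from 299 and 257. The gene GTF2IRD2B was at 0.69 in H1299, from 62 and 97 counts, below the minimum of 100 used for genes, and at -2.66 in HCT116. Over features present in both HCT116 libraries, 42 and 21 counts of GTF2IRD2B remain, and the value is then -0.31.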

How the results depend on the processing

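With 1 library per group, a value counted as moved when it left its own counting interval, or for counts and locus numbers when it differed by over 1.5 times. No paired analysis within a line was possible because each group has 1 library. A fit of treatment paired across the lines, which would leave 1 residual degree of freedom, was not run. Over classes listed in all 4 libraries, Tigger1 locus 1187060 included, the DNA transposon log2 ratio was -0.0074 in H1299 and 0.63 in HCT116. Over every listed class it was 0.48 in H1299, a reversal, and 2.09 in HCT116; these sums compare different classes. In HCT116 it was 0.88 without the 5% of cells with most counts, 0.54 without cells above 25% mitochondrial counts, and 1.30 as a mean over cells. The line difference was -0.90 over the classes each line shares. The share of cells with a count differed between treatments by -0.92 percentage points in H1299 and 3.91 in HCT116; without thinning the differences were -3.60 and -7.24, the latter a reversal, and over every listed class 6.50, also a turn of sign, and 19.6. The HCT116 ratio of locus numbers was 3.51 over every listed class. With a 2-fold limit, 2 of 6 HCT116 families were higher in place of 0, against 62.4% of all TE families. Over gene features present in both libraries, 0 of 23 H1299 transposase-derived genes were 2-fold higher. In the main setting it was 1 of 24, against 18.3% of all genes. Without their largest locus, Tigger1 and Tigger13a in H1299 turned to -0.078 and 0.62. With at least 50 counts, 0 of 14 H1299 loci were 4-fold lower, against 0.478% of all TE loci, and 1 of 6 HCT116 loci was higher, against 93.7%. Loci at 0 in a library pass 4-fold through the floor in these numbers. The cause of these moves was not tested, apart from the classes, cells or loci each setting leaves out. At 3 counts or more the H1299 ratio of locus numbers was 0.896, within 1.5 times of 1.12 but on the other side of 1. Without Tigger1 locus 1187060, chosen after seeing the data, Tc1/mariner names were at -0.12 in H1299 and 0.74 in HCT116. Of 42 alternative values of the main results, 27 stayed within these limits. Few counts per locus and the unlisted classes limit what can be compared.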
